A study of Mus musculus with 2 samples.

Results

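The genes described here are the translation initiation and elongation factors of the mouse. They were chosen by name: every gene with at least 1 protein-coding transcript whose symbol begins with Eif and a digit from 1 to 6, or with Eef and a digit of 1 or 2, except symbols beginning with Eif2ak (the eIF2 kinases) or Eif2s3. The rule gave 62 genes of 55450 annotated genes and of 21888 nuclear genes with a protein-coding transcript. A further 10 symbols matched by letters but had no protein-coding transcript and were left out. All measurements came from 1 group of 2 total RNA libraries, biological replicates 1 and 2, made from hippocampus (labelled as a layer of it) of 5xFAD/CAST males, adult animals between 8 and 10 months of age. In 5xFAD mice mutant human transgenes of familial Alzheimer's disease are expressed from the neuronal Thy1 promoter, and here that line had been crossed with Cast, a wild-derived strain. Each strand-specific library was made from 300 ng of RNA after ribosomal RNA reduction, with ERCC spike-in RNAs added. Both libraries carry the transgenic cross and the labels name the same donor for both, so no comparison between genotypes was possible, mice without the transgenes were not analysed here, and every SD below is the spread of 2 libraries, which may be technical.

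Initiation factors bring the small ribosomal subunit and the initiator tRNA to the cap of an mRNA and find the start codon, and elongation factors then carry aminoacyl-tRNAs to the ribosome and move it along codon by codon. The cap-binding complex eIF4F (eIF4E, eIF4G and eIF4A) is controlled by mTOR through the 4E-BPs, and eIF2 is controlled by stress kinases that block its exchange factor eIF2B. In neurons both controls act on the protein synthesis that long-lasting synaptic change needs, and eIF2 phosphorylation has been studied in Alzheimer's disease models.

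The libraries held 26128897 expected counts in replicate 1 and 28689423 in replicate 2, so that 1 count was worth 0.0383 CPM (counts scaled to depth) and 0.0349 CPM. Where a gene had no count, up to 3 counts cannot be told from 0, which is 0.115 CPM in replicate 1 and 0.105 CPM in replicate 2, for counting error only. All 11 markers of hippocampal neurons were detected, and their summed level was 2966 TPM (a level scaled for transcript length and library depth) in replicate 1 and 3355 TPM in replicate 2. The libraries were unlike in 2 other marker lists. The 12 choroid plexus markers summed to 1223 TPM in replicate 1 and 189.6 TPM in replicate 2, and the 8 striatum markers to 211 and 78.8 TPM. Every marker of both lists was higher in replicate 1, none was at 0 in either library, and the lowest value was 0.28 TPM, for Otx2 in replicate 2. In bulk tissue more cells of a type and more RNA per cell cannot be told apart. Values are therefore given for each library throughout, and the part of these tissues in any difference between the libraries was not tested.

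Several factors are made by pairs of related genes, and telling them apart by short reads rests on how much their sequences differ. The starts of the coding sequences of 3 pairs, bases 1 to 90 (1 to 84 for Eif4a1) of the leading protein-coding transcript in the GENCODE M21 annotation of mm10, are printed 5′ to 3′ because these pairs carry the paralog comparisons below. Capitals mark bases that differ from, or are absent in, the paired gene.
Eef1a1: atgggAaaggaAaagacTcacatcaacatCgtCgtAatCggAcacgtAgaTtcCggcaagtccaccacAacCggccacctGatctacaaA
Eef1a2: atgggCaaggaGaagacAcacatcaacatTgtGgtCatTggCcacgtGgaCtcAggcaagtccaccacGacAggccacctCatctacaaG
Eif4a2: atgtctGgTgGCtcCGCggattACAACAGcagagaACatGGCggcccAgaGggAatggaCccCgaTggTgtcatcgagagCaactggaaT
Eif4a1: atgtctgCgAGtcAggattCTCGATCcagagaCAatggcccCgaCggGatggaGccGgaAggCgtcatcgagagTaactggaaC
Eif5a: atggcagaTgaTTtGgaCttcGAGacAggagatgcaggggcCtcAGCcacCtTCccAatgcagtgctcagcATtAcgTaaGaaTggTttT
Eif5a2: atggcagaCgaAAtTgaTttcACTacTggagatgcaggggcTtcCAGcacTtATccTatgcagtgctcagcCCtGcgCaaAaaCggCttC
Eef1a1 and Eef1a2 differ at 15 of these bases and Eif5a and Eif5a2 at 25. Over their whole aligned coding sequences Eef1a1 and Eef1a2 were 80.1% identical (1113 of 1389 aligned bases), with no identical run longer than 23 bases, and Eif4a2 and Eif4a1 were 78.1% identical with no run longer than 20 bases. Eif5a and Eif5a2 were 73.2% identical, Eif1 and Eif1b 81.3%, Eif1ax and Eif1a 85.5%, Eif4g1 and Eif4g3 65.8%, Eif4e and Eif4e2 63.2%, and Eif4ebp2 and Eif4ebp1 69.1%. The exception was Eif3j2 and Eif3j1, identical over all 786 aligned coding bases and along a run of 1107 bases of their transcripts, so that the split of reads between these 2 genes is uncertain.

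Almost all of the factors were expressed in this tissue. At least 1 TPM in both libraries was reached by 60 of the 62 genes (96.8%), against 13250 of 21888 protein-coding genes (60.5%). The median level over the 62 was 35.2 TPM in replicate 1 and 36.0 in replicate 2, beside 15.6 and 15.9 TPM over the detected protein-coding genes. Their mean levels ran over several orders of magnitude, with 13 genes at 100 TPM or more, 40 between 10 and 100, 7 between 1 and 10, and 2 below 1. The highest 10% of protein-coding genes by TPM contained 26 of them in replicate 1 and 25 in replicate 2. Together they held 1.30% ± 0.012 (SD, n = 2) of all protein-coding TPM, and the 10 highest factors held 67.8% ± 0.13 of that.

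**Figure D1:**
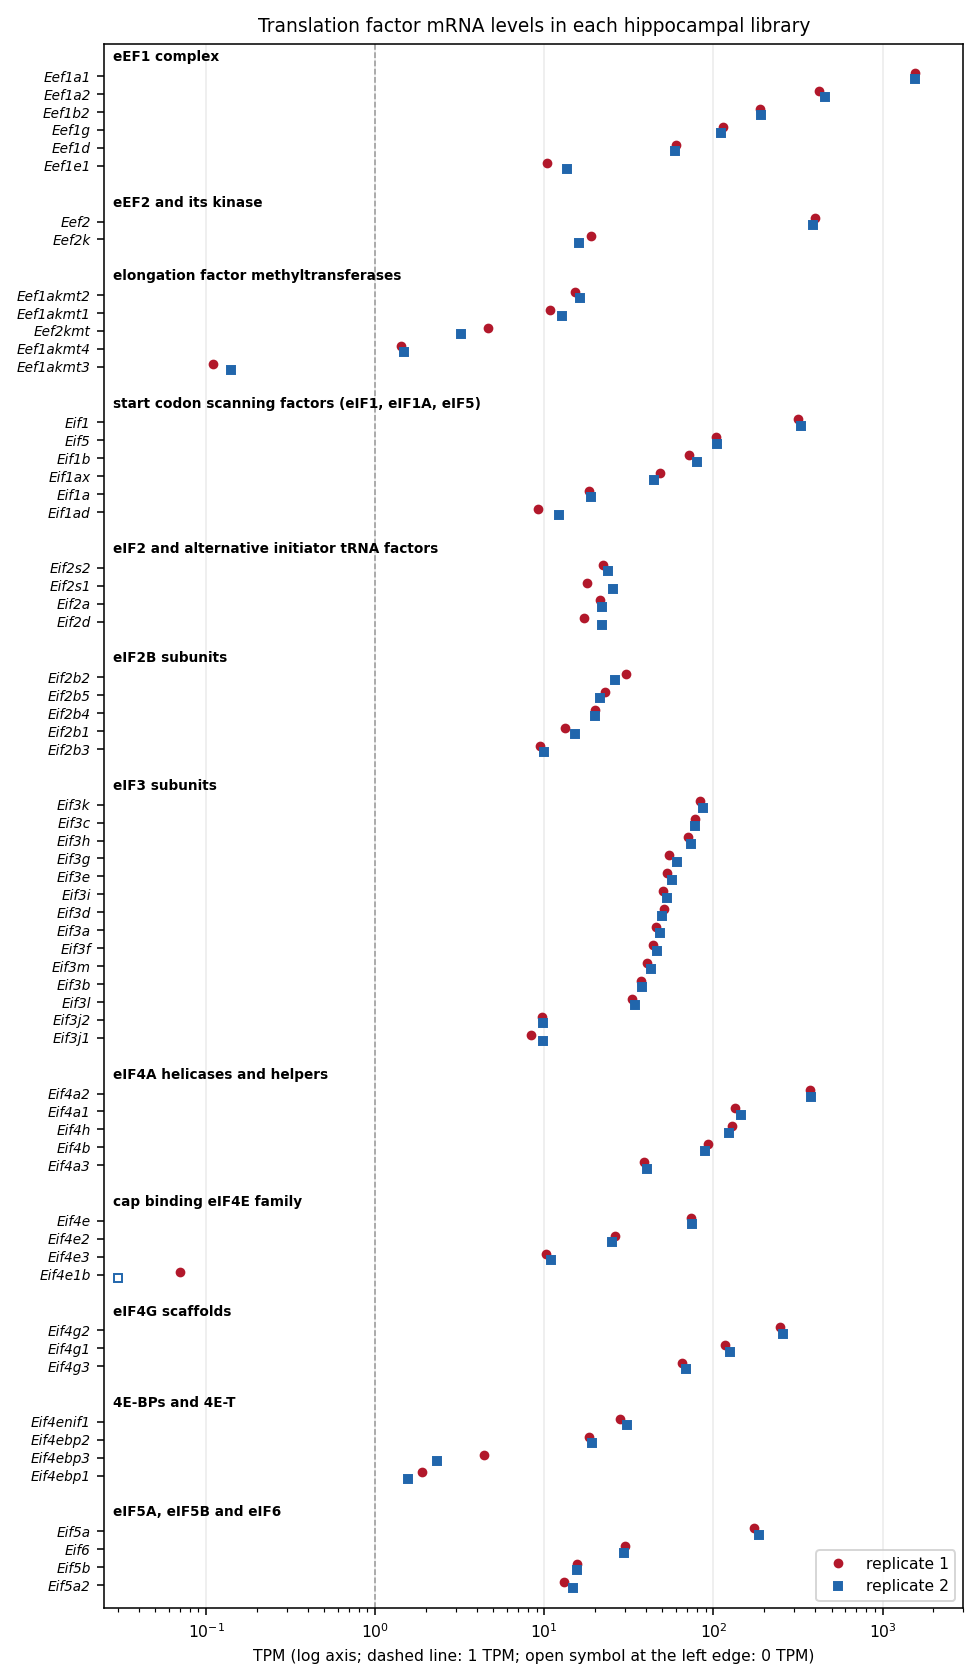
TPM (log axis) of each of the 62 factors in replicate 1 (red circles) and replicate 2 (blue squares), grouped by role and ordered by mean level, with a dashed line at 1 TPM. Eef1a1 stands furthest right at 1552 and 1563 TPM, and Eef1akmt3 and Eif4e1b alone lie left of the line.

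Among the elongation factors the eEF1A pair was the most abundant. Eef1a1 (chr9:78478449-78489151, minus strand) encodes the widely expressed form of the GTPase that delivers aminoacyl-tRNA to the ribosome, and Eef1a2 (chr2:181147653-181157014, minus strand) encodes the form known from adult neurons, heart and skeletal muscle. Eef1a1 had 1552 TPM in replicate 1 and 1563 TPM in replicate 2 (42952 and 46106 expected counts). Eef1a2 had 421 and 456 TPM (15150 and 17517 expected counts). Eef1a1 was thus the higher of the pair in both libraries, by 3.69-fold in replicate 1 and 3.43-fold in replicate 2, and made up 78.0% ± 0.88 of the TPM of the pair (SD, n = 2). Among protein-coding genes Eef1a1 ranked number 4 in replicate 1 and number 5 in replicate 2, and Eef1a2 ranked number 72 and number 69. In counts, which are not scaled for length, Eef1a1 exceeded Eef1a2 by 2.84-fold in replicate 1 and 2.63-fold in replicate 2.

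The size of the Eef1a1 excess depended on the quantification. The table made without alignment gave Eef1a1 1923 and 2094 TPM in replicates 1 and 2 and Eef1a2 380 and 436 TPM, a ratio of 5.06 in replicate 1 and 4.81 in replicate 2. Its counts gave a smaller ratio than those of the alignment-based table, 2.59 and 2.41. The tables differed in which Eef1a1 transcript they favoured. The alignment-based table put 83.4% of the gene's TPM on Eef1a1-201, a protein-coding transcript of 1794 bases, and 12.2% ± 0.40 on Eef1a1-208, a protein-coding transcript of 745 bases (SD, n = 2). In the alignment-free table the short Eef1a1-208 led with 888 TPM in replicate 1 and 971 in replicate 2, beside 839 and 884 TPM for Eef1a1-201. Eef1a2 has 1 annotated transcript, of 2084 bases. Eef1a1 also has 18 pseudogenes with at least 90% identity over at least 200 bases, with 1577 counts in replicate 1 and 1687 in replicate 2, or 3.67% and 3.66% of the count of Eef1a1 itself.

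The remaining elongation factors followed in a wide range. Eef2, the GTPase that moves the ribosome along the mRNA, had 397 TPM in replicate 1 and 388 TPM in replicate 2. Its kinase Eef2k, which calcium and calmodulin activate and which slows elongation, had 18.9 and 16.0 TPM, about 22.6-fold below Eef2. Of the nucleotide exchange complex eEF1B, the catalytic subunit Eef1b2 had 189 and 192 TPM, the scaffold subunit Eef1g 114 and 110 TPM, and the second catalytic subunit Eef1d 60.02 and 59.11 TPM. The 3 subunits kept their order in both libraries, with Eef1b2 over Eef1g by 1.69-fold and Eef1g over Eef1d by 1.89-fold. These levels include transcripts annotated as noncoding. Protein-coding transcripts held 70.5% and 67.2% of the Eef1b2 counts, 92.3% and 90.1% of the Eef1g counts and 86.9% and 86.7% of the Eef1d counts. Eef1e1, which despite its symbol is known as a subunit of the multi-tRNA synthetase complex, was lower at 10.4 and 13.5 TPM. The methyltransferases of these factors were among the lowest genes of the set. Eef1akmt2 averaged 15.7 TPM and Eef1akmt1 11.8 TPM, Eef2kmt had 4.65 and 3.20 TPM, Eef1akmt4 1.42 and 1.48 TPM, and Eef1akmt3 0.11 and 0.14 TPM (5 and 7 counts). Eef1a1, Eef1a2, Eef2 and the 3 eEF1B subunits together held 46.9% ± 0.44 of the TPM of all 62 factors.

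Of the factors that scan for the start codon, Eif1, which guards against wrong start sites, was the highest, with 317 TPM in replicate 1 and 331 in replicate 2. Its paralog Eif1b had 72.04 and 80.04 TPM, so that Eif1 was higher by 4.41-fold in replicate 1 and 4.14-fold in replicate 2, a log2 difference of 2.09 ± 0.06 (SD, n = 2). Eif5, the GTPase-activating protein of eIF2, had 104 and 105 TPM. Eif1ax, the X-linked gene for eIF1A, had 48.6 and 44.6 TPM, and its autosomal paralog Eif1a had 18.5 and 19.0 TPM. The alignment-free table gave Eif1ax 26.3 and 31.3 TPM, so that Eif1ax exceeded Eif1a by 2.48-fold in the alignment-based table and by 1.57-fold in the alignment-free one. Eif1ad, a protein with an eIF1A-like domain that is not a classical initiation factor, had 9.18 and 12.2 TPM. Much of the TPM of Eif1 rested on a short noncoding transcript. Eif1-202, of 383 bases, held 52.5% of that TPM in replicate 1 and 50.3% in replicate 2. The coding Eif1-201, of 1322 bases, nevertheless held 2914 and 3272 counts against 855 and 913 for Eif1-202. The ratio of Eif1 over Eif1b includes this noncoding RNA. In the alignment-based table Eif1-201 had 131 and 138 TPM, and all of the Eif1b TPM was on the coding Eif1b-201.

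The eIF2 group lay lower and close together. The α subunit Eif2s1, the target of the stress kinases, had 17.9 TPM in replicate 1 and 25.3 TPM in replicate 2, and the β subunit Eif2s2 had 22.2 and 23.9 TPM. In the alignment-based table, which of the 2 was higher differed between the libraries. The alignment-free table put Eif2s1 above Eif2s2 in both, at 21.4 and 29.7 TPM against 20.6 and 23.1 TPM, so their order is not resolved. The leading Eif2s1 transcript by alignment-based TPM was the coding Eif2s1-201 in replicate 1 (53.5%) and the noncoding Eif2s1-203 in replicate 2 (53.3%). Protein-coding transcripts held 89.1% and 87.2% of the Eif2s1 counts. Eif2a, an alternative initiator tRNA factor that is not a subunit of eIF2, averaged 21.6 TPM, and Eif2d, another such factor, averaged 19.6 TPM. The 5 subunits of the exchange factor eIF2B, in which human mutations cause vanishing white matter disease, had a median of 20.02 TPM in replicate 1 and 20.07 in replicate 2. Eif2b2 had the highest alignment-based level at 28.5 ± 3.05 TPM, followed by Eif2b5, which carries the exchange activity, at 22.2 ± 0.93, Eif2b4, which had 20.02 and 20.07 TPM in the 2 libraries, Eif2b1 at 14.3 ± 1.36 and Eif2b3 at 9.68 ± 0.35 TPM (SD, n = 2). The lead of Eif2b2 was not kept in the alignment-free table, which gave Eif2b2 18.9 and 19.5 TPM, Eif2b5 19.1 and 19.1 TPM and Eif2b4 16.9 and 20.1 TPM. The retained-intron transcript Eif2b2-206, of 338 bases, had 10.3 and 8.32 TPM in the alignment-based table and 0.51 and 0 TPM in the alignment-free one.

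The 14 genes of eIF3, the large complex that holds the 40S subunit ready for recruitment, were expressed at similar levels apart from 2 of them. Their median was 48.1 TPM in replicate 1 and 49.0 TPM in replicate 2. Leaving aside Eif3j1 and Eif3j2, which encode a loosely bound subunit, the 12 other subunits lay between 33.6 TPM for Eif3l and 85.1 TPM for Eif3k, a 2.53-fold range. Eif3c averaged 77.7 TPM, Eif3h 72.1, Eif3g 57.8, Eif3e 54.9, Eif3i 52.0, Eif3d 50.1, Eif3a 47.1, Eif3f 45.4, Eif3m 41.5 and Eif3b 37.6 TPM. Neighbours in this order were often closer than the spread between libraries, as for Eif3d at 50.7 and 49.5 TPM and Eif3i at 50.4 and 53.5 TPM. Eif3j2 had 9.73 and 9.76 TPM and Eif3j1 8.29 and 9.76 TPM, values that depend on how shared reads were divided. The median of the 6 genes with Eef1 subunit symbols, Eef1e1 among them, exceeded that of all 14 eIF3 genes by 1.64 ± 0.02 on the log2 scale. That gap depends on the lists. The median used was 152 TPM in replicate 1 and 151 TPM in replicate 2. Without Eef1e1 the middle gene would be Eef1b2, at 189 and 192 TPM.

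The eIF4A helicase family and the eIF4G scaffold family each had a leading gene by gene level. Eif4a2 (chr16:23107444-23114136, plus strand) had 371 TPM in replicate 1 and 376 in replicate 2, and Eif4a1 (chr11:69666936-69672423, minus strand) had 134 and 146 TPM. The ratio was 2.77-fold in replicate 1 and 2.57-fold in replicate 2, and Eif4a2 made up 67.5% ± 1.02 of the family. These are levels of whole genes, not of coding mRNA alone. In the alignment-based table protein-coding transcripts held only 42.0% and 38.7% of the Eif4a2 counts in replicates 1 and 2. For Eif4a1 they held 80.7% and 84.9%, so in that table the ratio of coding counts is smaller than the ratio of whole-gene counts. In the alignment-free table the coding shares were closer, 52.1% and 51.2% for Eif4a2 and 48.3% and 51.8% for Eif4a1. Eif4a3, which works in the exon junction complex rather than in initiation, had 39.1 and 40.5 TPM. Of the helpers of the helicase, Eif4h had 128 and 124 TPM and Eif4b 92.4 and 89.1 TPM. Among the scaffolds, Eif4g2 (DAP5), which lacks the eIF4E-binding region, led with 247 and 258 TPM, ahead of Eif4g1 with 116.5 and 126 TPM and Eif4g3 with 65.4 and 69.1 TPM. Eif4g2 exceeded Eif4g1 by 2.12-fold in replicate 1 and 2.05-fold in replicate 2. Of the other scaffolds, Eif4g1 exceeded Eif4g3 by 1.78-fold in replicate 1 and 1.82-fold in replicate 2.

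The mRNA of the cap-binding protein itself was less abundant than those of Eif4a2, Eif4a1, Eif4g2 and Eif4g1. Eif4e had 73.3 TPM in replicate 1 and 74.3 TPM in replicate 2. Eif4e2 (4EHP), a cap-binding repressor of translation, had 26.0 and 25.2 TPM, and Eif4e3 had 10.3 and 10.9 TPM. Eif4e1b, known from oocytes, was at the detection floor with 1 count in replicate 1 and 0 in replicate 2, although the alignment-free table gave it 34 and 42 counts. Of the 4E-BPs, the repressors that mTOR releases from eIF4E by phosphorylation, Eif4ebp2, the form known as the main one of the brain, was the highest at 18.4 and 19.2 TPM. Eif4ebp3 had 4.38 and 2.32 TPM (51 and 29 counts) and Eif4ebp1 had 1.89 and 1.57 TPM (42 and 44 counts), or 2.67 and 3.01 TPM in the alignment-free table. Eif4ebp2 exceeded Eif4ebp1 by 9.74-fold in replicate 1 and 12.2-fold in replicate 2. Eif4enif1 (4E-T), which carries eIF4E to the nucleus and to P-bodies, had 28.0 and 31.0 TPM. Eif4e stood at 3.98-fold the level of Eif4ebp2 in replicate 1 and 3.87-fold in replicate 2.

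The last group acts around subunit joining and elongation. Eif5a, which carries the hypusine modification and helps ribosomes past difficult peptide bonds, lies at chr11:69916714-69921958 on the minus strand and had 173 TPM in replicate 1 and 186 TPM in replicate 2. Its paralog Eif5a2 (chr3:28781276-28798846, plus strand) had 13.1 and 14.7 TPM, 13.2-fold and 12.6-fold below. Eif6, which keeps the 60S subunit from joining too early, had 30.2 and 29.6 TPM, but 55.6 and 52.5 TPM in the alignment-free table. Eif5b, the GTPase of subunit joining, had 15.5 and 15.6 TPM.

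**Figure D2:**
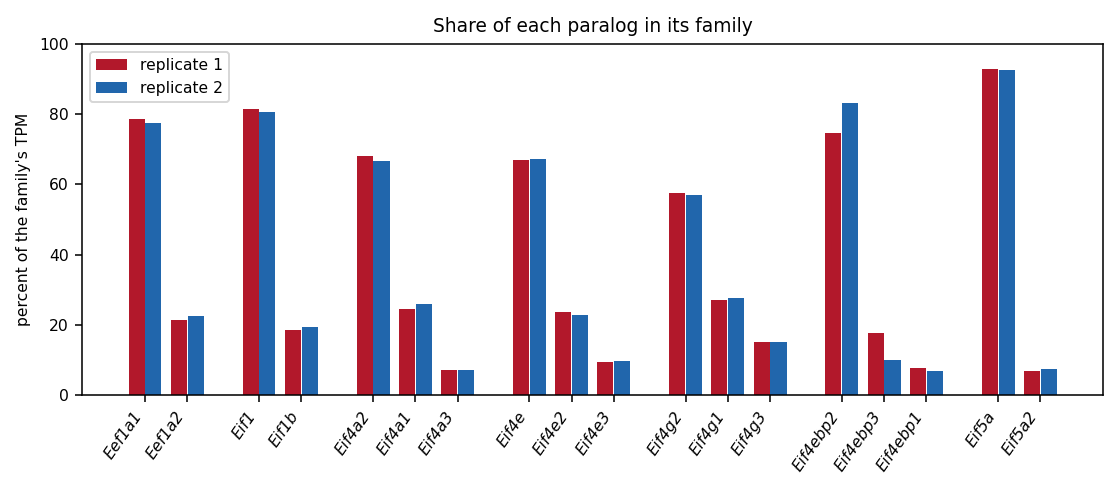
Percent of the summed TPM of each paralog family held by each member in replicate 1 (red) and replicate 2 (blue). Levels are of whole genes and include transcripts annotated as noncoding. The same gene leads in both libraries in every family shown, from 57.6% and 57.0% for Eif4g2 to 93.0% and 92.7% for Eif5a, and the 4E-BP family shows the widest gap between the libraries.

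Genes that act beside the factors were expressed with them. Of the 8 eIF2 kinases and phosphatase genes, all 8 were detected. The highest were Ppp1ca and Ppp1cc, catalytic subunits of protein phosphatase 1, at 116 ± 3.60 and 72.7 ± 1.41 TPM (SD, n = 2). Targets of the integrated stress response were detected for 14 of 15 genes, with Slc3a2, an amino acid transporter chain, at 72.8 ± 1.61 TPM and Psat1, a serine synthesis enzyme, at 55.9 ± 4.54 TPM. All 14 genes of mTOR and MAPK signalling to eIF4F were detected, led by Tsc2, a brake on mTOR, at 80.6 ± 9.86 TPM and the helicase Ddx3x at 75.0 ± 1.52 TPM. Poly(A)-binding proteins and partners were detected for 5 of 5 genes, with Pabpc1 at 139.6 ± 7.55 TPM and its inhibitor Paip2 at 80.8 ± 0.95 TPM. The 9 genes of eEF2 and eIF5A modification were led by the hypusine enzymes Dohh and Dhps at 32.8 and 26.5 TPM. Termination and recycling was led by the release factor Gspt1 and by Mcts1 at 38.4 and 37.8 TPM, and the mitochondrial elongation factors by Tufm and Gfm1 at 29.7 and 22.1 TPM. The 82 cytosolic ribosomal protein genes had a median of 214 TPM in replicate 1 and 211 TPM in replicate 2.

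Members whose mRNAs are known to start with a TOP motif, the pyrimidine run through which mTOR controls ribosomal protein mRNAs, were at the high end. The 9 such factors (Eef1a1, Eef1b2, Eef1d, Eef1g, Eef2, Eif3e, Eif3f, Eif3h and Eif4b) had a median of 92.4 TPM in replicate 1 and 89.1 TPM in replicate 2. The other 53 factors had medians of 26.0 and 25.3 TPM. The list was taken from background knowledge of TOP mRNAs, not from these values.

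The 2 libraries were then compared with each other, as a measure of how far replicates of 1 group lie apart. Expected counts were scaled by TMM, and the log2 ratio of replicate 1 over replicate 2 was tested against counting error with a two-sided exact binomial test, adjusted by Benjamini-Hochberg over all 16961 genes with a mean count of at least 20. This test compares 2 libraries and no condition. At an adjusted p under 0.05 it called 9 of the 60 factors tested (15.0%), where it called 18.8% of all genes. Without the filter on counts it called 9 of 62 factors (14.5%), where it called 10.8% of all genes, so which share was larger depended on the filter. More than 1.5-fold between the libraries lay 1 factor, Eif4ebp3, where 6.73% of all genes did. The median size of the ratio was 0.06 on the log2 scale for the factors and 0.12 for all genes. Of the 14071 protein-coding genes tested, 20.1% were called and 4.70% lay more than 1.5-fold apart, with a median size of 0.105. In direction, 16 factors were higher and 44 lower in replicate 1, with a median of -0.05, beside -0.003 for all genes. Spike-in scaling moved the median of all genes to -0.27 and that of the factors to -0.31, so that every direction between the libraries below is relative to the median gene.

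**Figure D3:**
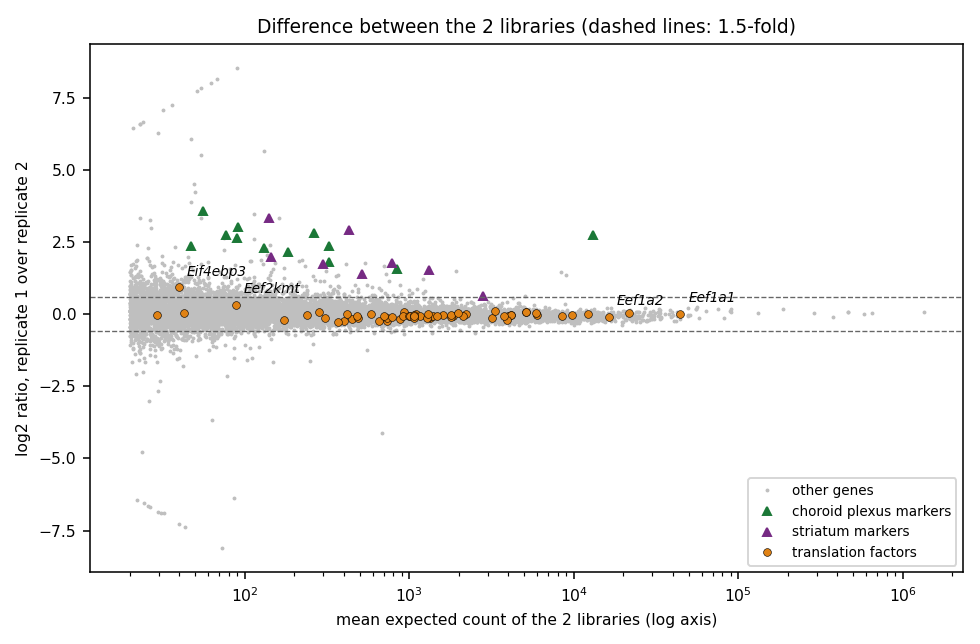
Log2 ratio of replicate 1 over replicate 2 against the mean expected count (log axis) for the 60 factors tested (orange), the choroid plexus (green) and striatum (purple) markers and the other genes (grey), with dashed lines at 1.5-fold. The factors lie close to 0 and only Eif4ebp3 passes a dashed line, while all 12 choroid plexus and all 8 striatum markers lie above the upper one.

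The called factors split by direction, with 4 higher and 5 lower in replicate 1, where 8.89% of all genes were called higher and 9.93% lower. Higher in replicate 1 were Eef1g, with 3320 counts in replicate 1 and 3339 in replicate 2 (log2 ratio 0.12, adjusted p = 0.00913, exact binomial test), Eif5 with 5020 and 5168 counts (0.08, 0.0258), Eef2 with 21003 and 22082 counts (0.05, 0.00206) and Eif4ebp3 (0.93, 0.0309). Lower were Eif4a1 with 3509 and 4353 counts (log2 ratio -0.19, adjusted p = 3.07e-07, exact binomial test), Eef1a2 (-0.08, 2.51e-06), Eif1ax with 2921 and 3469 counts (-0.12, 0.00615), Eif2s1 with 644 and 824 counts (-0.23, 0.0179) and Eif2d with 571 and 737 counts (-0.24, 0.0186). With the exception of Eif4ebp3, these log2 ratios lay between -0.24 and 0.12. Under spike-in scaling Eef1g, Eif5 and Eef2 turned to lower in replicate 1 and Eif4ebp3, still higher, was no longer called. With DESeq2 size factors Eif5 was not called (adjusted p = 0.0733, exact binomial test). Eef1a1 itself was not called (0.02, adjusted p = 0.0937, exact binomial test), but was called higher when scaled by total count alone (0.03, adjusted p = 0.00476). Among factors with a mean count of at least 100 the largest ratios were those of Eef1g, Eif2b3 (0.09) and Eif5 upward and of Eif2b1 with 316 and 418 counts (-0.28), Eif2d and Eif1ad with 351 and 451 counts (-0.24) downward. None of Eif2b1 (adjusted p = 0.0512, exact binomial test), Eif2b3 (0.698) and Eif1ad (0.0931) was called, although Eif2b1 was called lower with DESeq2 size factors (0.0384) and when the test was run on genes with a mean count of at least 100 alone (0.0447). Eif4ebp3 rests on few counts and shares exon sequence on its own strand with AC115631.1, another protein-coding gene model that held 132 and 161 counts, and in the alignment-free table it had 3.57 and 3.34 TPM and was not called (log2 ratio 0.20, adjusted p = 0.735, exact binomial test).

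By role and relative to the median gene, 6 of 9 TOP factors were higher in replicate 1, and 2 were called, both higher, in a background of 18.8% of all genes called in either direction. Of the 79 ribosomal protein genes tested, 58 were higher in replicate 1, 15 were called higher and 2 called lower, with a median log2 ratio of 0.04. Of the other 51 factors, 10 were higher, 2 were called higher and 5 lower, with a median of -0.05. With TMM scaling and a mean count of at least 20, no eIF3, eIF4G, eIF2B or eIF5A gene was called. Eif4g1 and Eif5a2 were called lower in replicate 1 with DESeq2 size factors and with the alignment-free counts, and Eif2b1 in the settings named above. Among the pathway genes, Slc7a11 was called higher in replicate 1 (log2 ratio 0.37), Ddit4 (-0.38) and Sesn2 (-0.37) lower, Rps6kb1 (-0.16) lower and Guf1 (0.26) higher, and no other. Beside these ratios stand those of the marker lists, with medians of 2.51 for choroid plexus, 1.76 for striatum and -0.14 for hippocampal neurons, of which 8 of 11 were called lower and 2 higher in replicate 1. The part of these tissues in the ratios of the factors was not tested.

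TPM and counts did not always point the same way. For 11 of the 60 detected factors the TPM was higher in one library and the scaled count in the other, and for 4 of these the higher TPM exceeded the lower by more than 5%. Eif1ax had 48.6 TPM in replicate 1 and 44.6 in replicate 2 while its count ratio was -0.12 on the log2 scale. Its effective length, set by the mix of transcripts assigned to it, was 3315 bases in replicate 1 and 4013 in replicate 2, and the share of its TPM on the retained-intron transcript Eif1ax-202 was 37.0% and 22.3%. The effective lengths of the others were 729 and 963 bases for Eif2b2, 2760 and 3432 bases for Eef2k, and 1637 and 1493 bases for Eif2b3, which had 9.43 and 9.92 TPM and a count ratio of 0.09.

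The alignment-free table gave somewhat more counts per gene. Over factors with at least 500 counts, the ratio of alignment-free to alignment-based counts had a median of 1.13 in replicate 1 (46 factors) and 1.13 in replicate 2 (48 factors), beside 1.14 and 1.14 over all protein-coding genes with that depth. Eif4a1 was the highest at 1.36 and 1.33, above the 95th percentile of coding genes (1.24 in each). Eif4a3 was the lowest at 0.996 and 0.973. Eef1a1 at 1.03 and 1.03, Eef2 at 1.04 and 1.05 and Eif3k at 1.01 and 1.03 also lay below the 5th percentile in both libraries (1.06 in each). Eif4a1 has 4 pseudogene copies with 472 and 507 counts in the alignment-based table and 577 and 710 in the alignment-free one. It also overlaps a small nucleolar RNA, Gm22988. This held 578 and 687 counts in the alignment-based table and 0 in the alignment-free one. The part of either in the ratio of Eif4a1 was not tested.

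**Figure D4:**
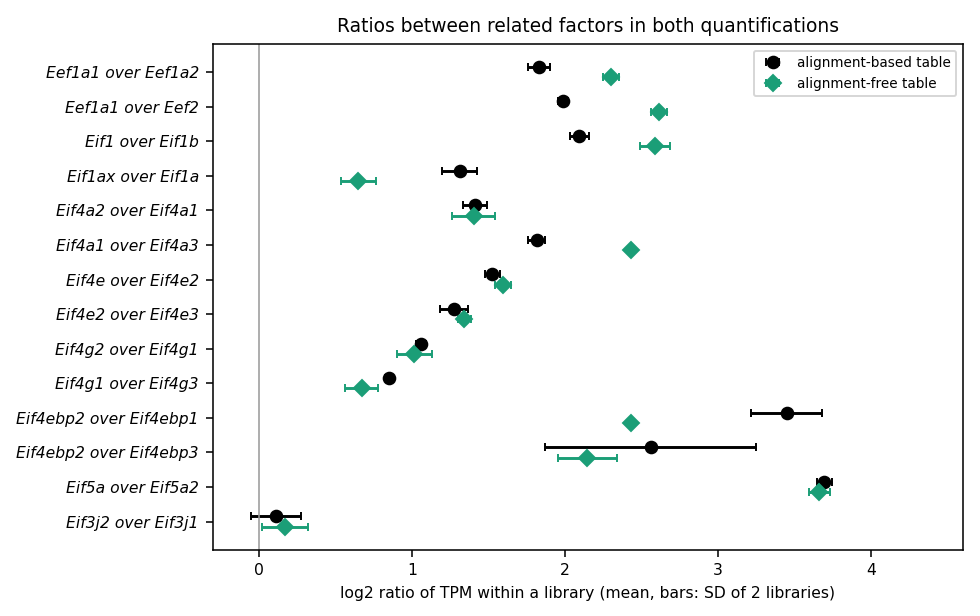
Log2 ratio of TPM within a library for 14 pairs of related factors (points: mean, bars: SD of 2 libraries) in the alignment-based table (black) and the alignment-free table (green). The order within each pair is the same in both tables, and the gap between the tables is widest for Eif4ebp2 over Eif4ebp1, at 3.45 and 2.43.

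At the transcript level the tables differed more. Of 55 detected factors with more than 1 annotated transcript, 43 had the same leading transcript by TPM in both tables within each library. Eif4e2 is 1 of these 43, although its leading transcript differed between the libraries. The 12 others were Eef1a1, Eef1d, Eef1e1, Eef2k, Eif2b2, Eif2s1, Eif4a2, Eif4e, Eif4ebp1, Eif4h, Eif5b and Eif6. Protein-coding transcripts held a median of 93.4% of a factor's counts in the alignment-based table and 93.8% in the alignment-free one, and the share was under 80% for 10 factors in each. Eif4a2 stood apart, with 40.4% ± 2.34 of its counts on protein-coding transcripts in the alignment-based table and 51.7% ± 0.63 in the alignment-free one (SD, n = 2). Its leading transcript, Eif4a2-210, is annotated as a target of nonsense-mediated decay and had 139 TPM in replicate 1 and 146 in replicate 2, beside 90.1 and 91.2 TPM for the coding Eif4a2-203. In the alignment-free table the leading Eif4a2 transcript was Eif4a2-209, an intron-retaining model of 386 bases with 121 and 108 TPM, to which the alignment-based table gave 1.33 and 1.20 TPM. For Eif4a1 the coding share was 82.8% in the alignment-based table and 50.1% in the alignment-free one, and for Eif5b 74.8% and 57.3%. The gene levels of these 3 thus include RNA annotated as noncoding. The same holds for other factors, such as Eef1b2, with a coding share of 68.9% in the alignment-based table and 72.3% in the alignment-free one.

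**Figure D5:**
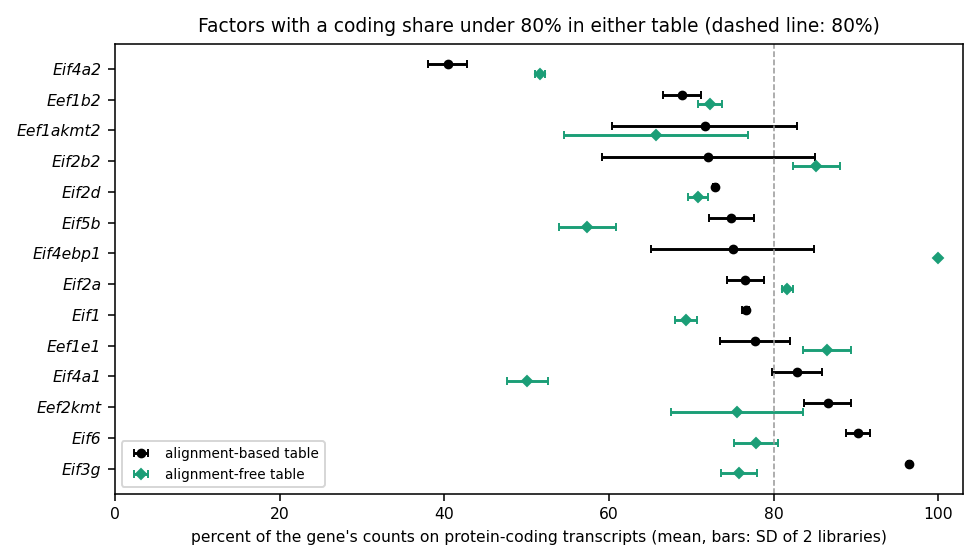
Percent of each gene's counts assigned to protein-coding transcripts (points: mean, bars: SD of 2 libraries) for the 14 factors under 80% (dashed line) in either the alignment-based (black) or the alignment-free (green) table. Eif4a2 has the lowest share in the alignment-based table, at 40.4%, and Eif4a1 the lowest in the alignment-free one, at 50.1%.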

How the data were processed

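Total RNA of 2 hippocampal libraries of 1 group was quantified by the authors on mm10 and GENCODE M21, per the deposited notes. No aligner or quantifier, nor whether counting used the strand, is named in the sources used here. Expected counts, which need not be whole, were estimated by the authors for each gene, per the file headers. TPM and FPKM values were deposited already scaled for transcript length and sequencing depth, per the file headers. A percent column in the deposited transcript table gives each transcript's part of its gene's TPM. From the deposited alignment-free table, counts and TPM of transcripts were added up per gene. Entries that name no gene, other than spike-ins, held 15667 and 19435 counts and stayed out of library sizes, and 86 genes absent from the alignment-free table were left out.

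Library sizes were scaled by TMM in edgeR (version 4.0.16, R 4.3.3), or by DESeq2 (1.42.0), total count or spike-ins as alternatives. Expected counts were rounded for the exact binomial test (scipy 1.17.1), and log2 ratios used a prior of 0.5. The test compares libraries only. It was checked on simulated counts that varied by counting error alone, so the check does not cover variation beyond counting error. Coding sequences were aligned with biopython (1.88) and pseudogene copies were found with blastn (2.17.0). All members are described by role, with values per library for paralog groups, the 10 highest members and the 3 largest ratios per direction. Members, lists and tests were chosen with earlier results of these data known. Coding sequence is shown in place of protein sequence.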

Additional observations from a re-analysis of the deposited data

How the results depend on the processing

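Of 132 alternative values, 114 stayed close to the reported value and 3 changed direction. Close meant within the spread between libraries, within 1.5 times the reported count or on the same side of the test. For the factors' median ratio between the libraries, the spread used was the SD over factors, 0.16. Leaving out 1 of 2 libraries cannot move a mean beyond its SD, and FPKM ratios within a library equal those of TPM. Part of the 114 was thus fixed in advance. The alignment-free TPM moved the log2 ratio of Eef1a1 over Eef1a2 to 2.30, Eif1 over Eif1b to 2.59, Eif4g2 over Eif4g1 to 1.02, Eif4ebp2 over Eif4ebp1 to 2.43 and the eEF1 over the eIF3 median to 2.07. A pseudocount of 1 gave 2.86 for Eif4ebp2 over Eif4ebp1 and 3.60 for Eif5a over Eif5a2. The share of protein-coding TPM was 0.937% in expected counts and 1.42% in alignment-free TPM. Spike-in scaling moved the median of all genes to -0.27, that of the factors to -0.31, and called 54 factors, none of them higher in replicate 1, where 59.2% of all genes were called. The log2 ratios of Eef1g, Eef2 and Eif5 then turned to -0.15, -0.21 and -0.18. The other scalings, the alignment-free counts and other count filters called 9 to 11 factors. Without a count filter 14.5% of the factors were called beside 10.8% of all genes, and with a minimum of 100 counts 16.1% beside 22.3%. A minimum of 1000 counts gave a median ratio between quantifications of 1.12. The causes of these shifts were not tested. Detection at 0.1 or 5 TPM counted 61 or 56 factors. Leaving out a library kept the 60 detected factors, while the same leading transcript in both tables was then found for 44 to 49. Both counts ask for the same outcome in each library, so leaving 1 out could only keep or raise them. No paired analysis was possible because there is only 1 group.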

Other observations

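Several of the factors are also hosts of small nucleolar RNAs, which guide the modification of ribosomal and spliceosomal RNA. Annotated small nucleolar RNAs lay on the same strand inside 8 of the 62 genes (12.9%), beside 245 of 13250 detected protein-coding genes (1.85%). The hosts were Eef1b2, Eef2, Eif3a, Eif4a1, Eif4a2, Eif4g1, Eif4g2 and Eif5. In the alignment-based table Gm26447 inside Eif4a2 had 490 counts in replicate 1 and 470 in replicate 2, Gm22988 inside Eif4a1 had 578 and 687, and Gm23262 inside Eif4g2 had 131 and 131. The alignment-free table listed every hosted small RNA at 0.

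Pseudogenes with at least 90% identity over at least 200 bases were found for 26 of the 62 genes, 87 copies in all. Eif1 had the most, 20, with 16 counts in replicate 1 and 20 in replicate 2. The copies of Eif4a1 held 13.5% and 11.6% as many counts as Eif4a1, and those of Eef1g 8.84% and 9.72% as many as Eef1g. Exons of 26 of the genes overlapped those of another gene, on the same strand for 14 and on the opposite strand for 16. The shares of all protein-coding genes with such copies or overlaps were not counted, so whether these numbers are unusual is not known.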
